A study of Homo sapiens with 6 samples.

Results

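The axon guidance ligands and receptors described here were the genes of 8 families, chosen by name: the Eph receptors and their ligands the ephrins, the plexins and their ligands the semaphorins, the ROBO receptors and their SLIT ligands, and the UNC5 receptors with the netrins. Of 56638 genes in the count table, 66 had such a name, and the 60 with reads in at least 1 input library were described, 30 receptors and 30 ligands. EFNA2, EPHB3, SEMA4G, SLIT1 and NTN5 were at 0 in all 6 libraries. In GENCODE release 44, SEMA4G and NTN5 share their whole span with other genes and EPHB3 and EFNA2 share none, and why they held no counts was not tested. EFNA4 had no input counts, with 10 and 7 H3K4me3 counts in DMSO and MAK683, and was not described further. The member with the fewest input counts was NTN3, with 46 and 43. The cells were G401, a malignant rhabdoid tumor line that lacks SMARCB1. SMARCB1 had 0 input counts in both treatments, 2 H3K4me3 counts in DMSO and 4 H3K27me3 counts in MAK683. Input was at 0 for 19745 genes in DMSO and 19589 in MAK683, so this does not by itself show the loss. Cells received either DMSO or 3 µM MAK683, which blocks the methyltransferase complex PRC2 through its subunit EED, for 3 days. In each treatment the 2 histone modifications H3K27me3 and H3K4me3 and an input (chromatin not enriched by antibody) were sequenced once, so there was 1 library per value, no replicate check and no test. All 6 libraries came from this one line in culture, and whether other rhabdoid tumor cells give the same values was not tested.

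Axon guidance genes encode cues and receptors through which a growing axon is attracted or repelled, and the same molecules shape blood vessels and many epithelia. Ephrins are tied to the membrane and signal on contact to Eph receptor tyrosine kinases. Semaphorins, secreted or membrane bound, act through plexins, often with a neuropilin as co-receptor. SLIT proteins repel through ROBO receptors, and netrins attract or repel depending on the receptor, UNC5 receptors giving repulsion. H3K27me3 is laid down by PRC2 over silent genes, often developmental regulators, and can cover whole gene bodies. H3K4me3 marks the start of active or poised genes.

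Library totals lay between 13308099 and 21281877 counts, and 3 counts, the smallest level taken as seen, were worth 0.141 to 0.225 CPM, counts scaled to the library total. The counts were taken over whole genes, which spanned 2.85 to 1743 kb in the members with a median of 69.7 kb, so a narrow signal at the start of a long gene was diluted. The methods describe a Drosophila spike-in, and whether the whole-number counts had been scaled by it before deposit is not stated. They were treated as unscaled, so they say nothing of how much of a modification the cells held in total. Apart from the pseudocounts, a factor common to a library cancels in the levels over input and in the changes relative to the median gene. In bulk chromatin, less modification in every cell and fewer cells with it cannot be told apart. Levels are given as log2 of the CPM over the input CPM of the same treatment, for genes with at least 100 input counts in all, which 59 of the 60 members had (all but NTN3). H3K27me3 was called at 2-fold over input or more, and H3K4me3 at 1.5-fold or more.

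H3K27me3 covered a minority of the guidance genes in DMSO, and 6 of the 7 called at 2-fold were receptors. It was above input at 25 of 59 members (42.4%), against a background of 27.3% over all genes tested, and the median log2 over input was -0.16 in the members and -0.75 over all genes. At 2-fold or more, however, only 7 of 59 members were called, a share of 11.9% beside a background of 10.7%. The 7 were the receptors EPHB6, PLXNA2, PLXNA4, ROBO4, EPHB1 and ROBO3 and the ligand SLIT3. Of the receptors 6 of 30 were called (20%) and of the ligands 1 of 29 (3.45%), a difference that was not tested. The ligands SEMA6A (1.98-fold) and NTN1 (1.92-fold) and the receptor EPHA10 (1.91-fold) lay just under the call. The division thus depends on the threshold. In MAK683, 6 of 59 members were called (background 6.71%), the same genes without ROBO4. When the libraries were scaled by the median of ratios in place of their totals, 17 members were called in DMSO, at a background of 21.5%.

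**Figure D1:**
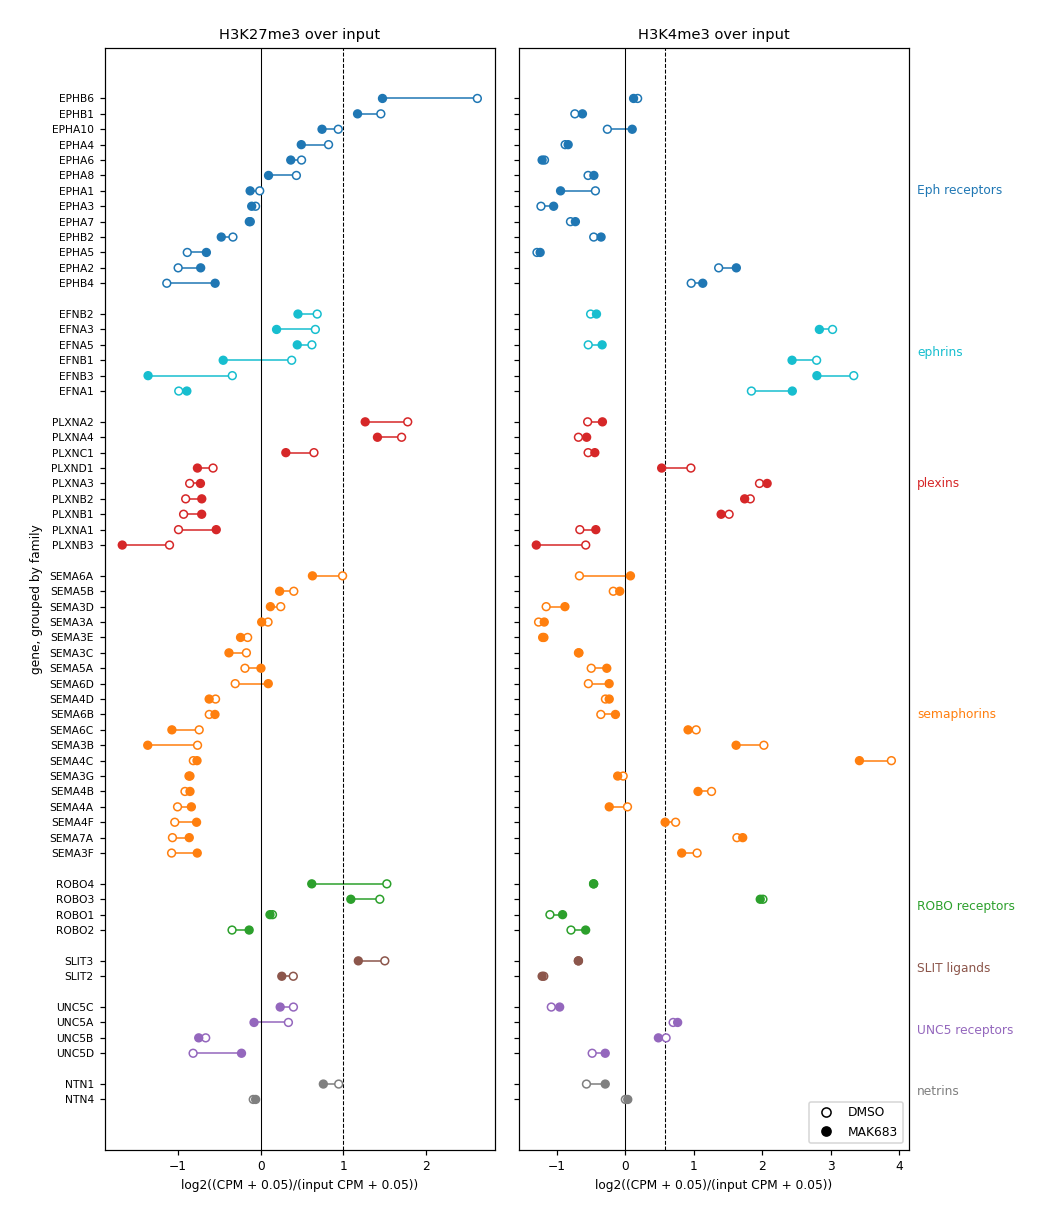
Level of H3K27me3 (left) and H3K4me3 (right) over input, as log2, for the 59 members tested, grouped by family, with open points for DMSO and filled points for MAK683 (1 library each). The solid line marks the input level and the dashed line the call. EPHB6 has the highest H3K27me3 in DMSO (2.62), no semaphorin and no ephrin crosses the H3K27me3 line, and SEMA4C has the highest H3K4me3 (3.89).

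EPHB6, an Eph receptor whose kinase domain lacks activity, had the highest H3K27me3 of the members. Its counts were 1026 for H3K27me3 against 146 for input in DMSO, and 510 against 269 in MAK683. This was 6.14-fold over input in DMSO and 2.77-fold in MAK683. Relative to the median gene, the input of EPHB6 was 0.66 higher in MAK683 on the log2 scale, so part of this contrast lies in the input. H3K4me3 counts were 209 and 294. The gene lies at chr7:142552823-142568847 (GRCh37, plus strand). Its neighbour among the members, EPHA1, lies 519 kb away and had a log2 of -0.01, with 230 H3K27me3 and 204 input counts in DMSO, so the high level did not extend over both receptors. EPHA1-AS1, an antisense gene named here after its values were seen, had 3561 H3K27me3 and 1243 input counts in DMSO.

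Among the other Eph receptors, EPHB1, a receptor of B-class ephrins known for guiding retinal axons, had 22955 H3K27me3 counts against 7373 of input in DMSO and 13651 against 8894 in MAK683. This was 2.74-fold and 2.25-fold over input. H3K4me3 counts of 5585 and 5789 were below the input level in both treatments. EPHB1 spans 465 kb, and 40.2% of that span is not shared with another gene in GENCODE release 44. EPHA10, another family member without an active kinase, stood at 1.91-fold (1369 H3K27me3 and 628 input counts in DMSO, 823 and 722 in MAK683, with 661 and 778 H3K4me3 counts). Of the 13 Eph receptors, 6 were above input in DMSO, and the lowest was EPHB4, known for venous endothelium, at a log2 of -1.14. EPHB4 had 180 H3K27me3 and 349 input counts in DMSO and 182 and 392 in MAK683, and its H3K4me3 counts were 860 and 864. EPHA2, EPHA5 and EPHB2 were also below input, so the family had members on both sides.

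Of 6 ephrins, 4 were above input for H3K27me3 in DMSO and 0 reached 2-fold. H3K4me3 was called at 4, EFNA1, EFNA3, EFNB1 and EFNB3 (background 31.6%), all of them short genes, while EFNA5 and EFNB2 were below input at -0.54 and -0.51. EFNB2, a transmembrane ligand of EPHB4, had the highest H3K27me3, a log2 of 0.68 (897 counts against 491 of input in DMSO, 611 against 656 in MAK683, with 436 and 492 H3K4me3 counts). EFNA1, a membrane-anchored ligand of EphA receptors, had the lowest, a log2 of -0.99, from 67 H3K27me3 and 118 input counts. EFNA3 carried both modifications above input in DMSO, H3K27me3 at 1.58-fold and H3K4me3 at 8.15-fold. Only 8.4% of the EFNA3 span and 33.6% of the EFNB2 span is unshared in the annotation. Their input in DMSO was 1.67 and 0.635 CPM per kb, beside a median of 0.703 in the members not on the X chromosome. How reads in shared stretches were assigned, and which span was counted for EFNA3, was not tested.

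The plexins divided most clearly. PLXNA2, a class A plexin that receives class 3 and class 6 semaphorins, had 10280 H3K27me3 counts against 2635 of input in DMSO, and 5671 against 3465 in MAK683. It stood 3.43-fold over input in DMSO and 2.4-fold in MAK683. PLXNA4, a related receptor of the same ligands, had 22742 against 6137 in DMSO and 13556 against 7475 in MAK683, 3.26-fold and 2.66-fold. H3K4me3 counts of PLXNA2 were 2272 and 2761, and those of PLXNA4 were 4820 and 5076, all below the input level over these spans of 222 and 525 kb. PLXNC1, the receptor of SEMA7A, was at 0.64. The other 6 plexins, all class B members included, lay between -1.10 and -0.58. The lowest was PLXNB3, on the X chromosome, with 36 and 26 H3K27me3 counts, 69 and 124 input counts and 58 and 50 H3K4me3 counts. The input of the 3 members on X, at 0.27 to 0.323 CPM per kb in DMSO, was below the median of the other members, 0.703.

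None of the 19 semaphorins reached 2-fold for H3K27me3. The highest was SEMA6A, a transmembrane ligand of PLXNA2 and PLXNA4, just under the call at 1.98-fold in DMSO and 1.54-fold in MAK683 (1876 H3K27me3 against 830 input counts, then 1079 against 1026). The family median was -0.62, and 15 of 19 were at or below input. SEMA3F, a secreted ligand that acts through NRP2, was lowest at -1.08, with 258 H3K27me3 and 480 input counts in DMSO and 241 and 603 in MAK683. Its H3K4me3 counts, 1255 and 1073, were above input. SEMA6A and its 2 plexins thus stood at 0.99, 1.78 and 1.70 on the log2 scale in DMSO, at the top of their families.

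Both SLIT genes with counts and 3 of 4 ROBO genes were above input. SLIT3, a secreted ROBO ligand, had 23223 H3K27me3 counts against 7215 of input in DMSO, and 13835 against 8956 in MAK683, 2.83-fold and 2.27-fold. For H3K4me3 it had 5660 and 5600. SLIT2, with 5887 H3K27me3 against 3940 input counts in DMSO and 3849 against 4734 in MAK683, was at 1.31-fold and 1.19-fold, and its H3K4me3 counts were 2178 and 2048. ROBO1, the principal receptor of both, was near the input level, with 15962 against 12719 in DMSO and 10848 against 14731 in MAK683, a log2 of 0.14 and 0.11, with 7486 and 7841 H3K4me3 counts. The ligand SLIT3 was therefore above its receptor ROBO1, while ROBO2, the longest member, was below input at -0.35, with 16959 H3K27me3 against 18968 input counts in DMSO, 13711 against 22173 in MAK683, and 13817 and 14910 for H3K4me3. SLIT1 itself was at 0, and a readthrough row, ARHGAP19-SLIT1, named after its values were seen, had 466 input and 398 H3K27me3 counts in DMSO.

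ROBO3 and ROBO4 lie side by side on chromosome 11 with 2.22 kb between them, and both carried H3K27me3. ROBO3, which lets commissural axons cross the midline, had 727 H3K27me3 counts against 235 of input in DMSO and 404 against 278 in MAK683. Its H3K4me3 counts were 1199 and 1098. ROBO4, a receptor of vascular endothelium, had 339 against 103 in DMSO and 177 against 169 in MAK683, with 94 and 123 for H3K4me3. H3K27me3 was thus 2.71-fold over input at ROBO3 and 2.88-fold at ROBO4 in DMSO, then 2.13-fold and 1.53-fold in MAK683. Relative to the median gene, the input of ROBO4 was 0.49 higher in MAK683 on the log2 scale, so part of its contrast lies in the input. The pair differed in H3K4me3, which was 4.03-fold over input at ROBO3 and 0.724-fold at ROBO4 in DMSO. ROBO3 was the 1 member of 59 with both modifications called in DMSO, beside a background of 0.795%. No member of at least 100 kb was called for H3K4me3, since whole-gene counts dilute a signal at the start. EPHB1, PLXNA2, PLXNA4 and SLIT3, also called for H3K27me3, are that long, so whether their starts carry both cannot be told from these counts. Whether both modifications of ROBO3 lay on the same chromosome copies or in the same cells was not tested.

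The netrins and UNC5 receptors had no H3K27me3 call. NTN1, the founding netrin, stood at 1.92-fold (5906 H3K27me3 against 2701 input counts in DMSO, 3705 against 3216 in MAK683, with 2301 and 2637 H3K4me3 counts). UNC5C was the highest receptor at 1.31-fold, from 6223 and 4160 counts in DMSO and 3982 and 4964 in MAK683. For H3K4me3 it had 2482 and 2565. UNC5D, which also binds FLRT proteins, was the lowest at 0.567-fold in DMSO. NTN3, below the filter, had 26 and 11 H3K27me3 counts and 528 and 412 H3K4me3 counts.

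**Figure D2:**
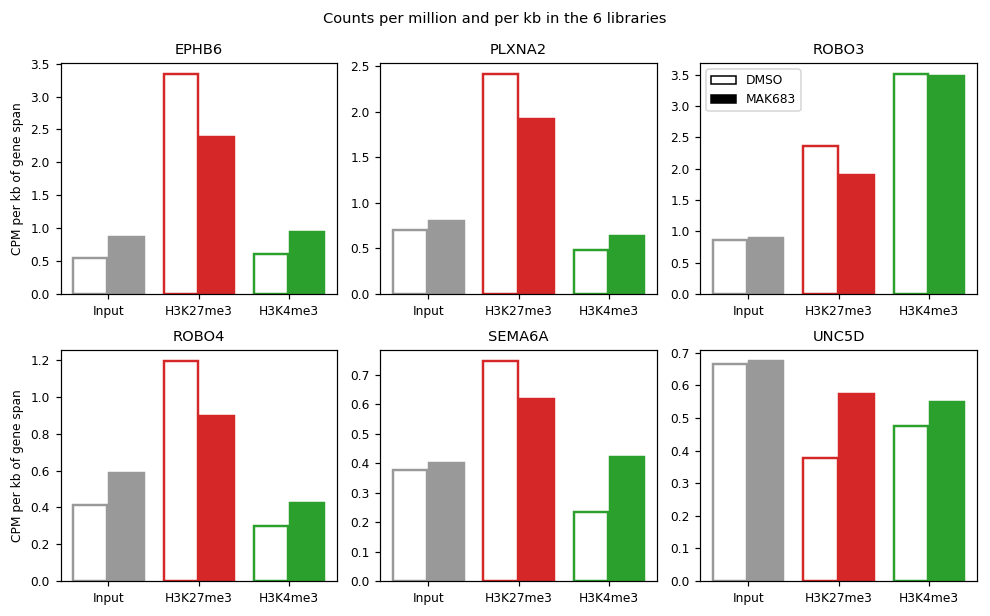
CPM per kb of gene span for 6 members in the 6 libraries, open bars for DMSO and filled bars for MAK683, 1 library per bar. In ROBO3 the H3K4me3 bars stand above the H3K27me3 bars. In EPHB6 and ROBO4 input and H3K4me3 are both higher in MAK683 while H3K27me3 is lower. In UNC5D the H3K27me3 share of the library is higher in MAK683 and stays below input in both treatments.

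H3K4me3 was called at 20 of 59 members in DMSO (background 31.6%) and at 17 in MAK683 (background 30.4%), so the members were close to all genes. The calls followed gene length. None of the 28 members of at least 100 kb was called in either treatment, against 20 of 31 shorter members in DMSO and 17 of 31 in MAK683. Across the 59 members, Spearman's rho between length and H3K4me3 over input was -0.80 in DMSO. These points share the libraries. A signal confined to the gene start is diluted in a long gene, and a low whole-gene value of a long gene does not show that its start lacks H3K4me3. Among the short members, SEMA4C, a transmembrane semaphorin, was highest with 2687 and 2172 H3K4me3 counts against 143 and 201 of input. EFNB3, EFNA3 and EFNB1 followed, at log2 values of 3.34, 3.03 and 2.79 in DMSO.

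The change with MAK683 was taken from the counts of each modification as log2 of MAK683 over DMSO, minus that of the median gene with at least 50 counts on average, and was called at 1.3-fold. The median gene had a log2 of -0.44 for H3K27me3 and -0.13 for H3K4me3, so a gene that moved as the median gene did had 42.5% of its H3K27me3 counts and 47.7% of its H3K4me3 counts in MAK683. H3K27me3 counts were lower in MAK683 at 57 of 60 members, in a library that also held fewer counts in all. Relative to the median gene, 20 of 57 members were higher (background 50% by construction) and the median member was at -0.12. The 95% Clopper-Pearson interval of the share, which covers counting error only, lay wholly below the median gene at 28 of 57 members (background 24.2%) and wholly above it at 9 (background 19%). The deep counts of long genes make these intervals narrow. Between 10 and 40 counts, even counts were 1.01 to 1.23 times as frequent as neighbouring odd counts in the 6 libraries. The reads were paired, and if both mates were counted the intervals are too narrow, which was not tested. Divided by input, H3K27me3 was lower in MAK683 at 39 of 59 members (66.1%), beside 40% of all genes tested. Input itself was above the median gene at 44 of 59 members (74.6%), which lowers this ratio. H3K27me3 over input was also lower at 59 of 83 potassium channel genes (71.1%), and at 12 of 41 cadherin and protocadherin genes (29.3%).

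At 1.3-fold, 7 of 57 members were called lower in H3K27me3 (background 9.5%) and 4 higher (background 10.7%), so the calls were about as common as in all genes. Another scale between libraries moves the calls of all genes along with those of the members. With library totals, 4 members were lower (background 5.75%) and 8 higher (background 16.5%), and with the median of ratios 17 were lower (background 18%) and 2 higher (background 6.18%). The 7 lower members were EPHB6, SEMA3B, ROBO4, EFNA3, EFNA1, PLXNA2 and ROBO3. Of these, SEMA3B and EFNA1 were already below input in DMSO, at a log2 of -0.77 and -0.99, and the others were above it. EPHB6 had the largest decrease, with 33.2% of its counts in MAK683 (30.9 to 35.6%), 0.57 below the median gene on the log2 scale. PLXNA2 had 35.6% (34.8 to 36.3%) and ROBO3 35.7% (32.9 to 38.6%). SEMA3B, a secreted semaphorin, had 96 and 49 counts, 33.8% (26.2 to 42.1%), with 144 and 187 of input and 743 and 579 for H3K4me3. EFNA3 had 441 and 232, 34.5% (30.9 to 38.2%), with 245 and 298 of input and 2531 and 2143 for H3K4me3. For EFNA1, with 67 and 36 counts, 35.0% (25.8 to 45.0%), the interval held the share of the median gene. EFNA1 was also the 1 member of 59 whose input was lower at 1.3-fold (118 and 99 counts, background 2.69%), and divided by input its H3K27me3 change was 0.015. Its H3K4me3 counts were 537 and 544.

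The 4 members called higher started below input. UNC5D had 4046 and 4280 H3K27me3 counts under DMSO and MAK683, 51.4% (50.3 to 52.5%), with 6273 and 7380 of input and 5663 and 6050 for H3K4me3. PLXNA1, a class A plexin like PLXNA2, had 383 counts in DMSO and slightly more in MAK683, 51.2% (47.6 to 54.7%), with 672 and 855 of input and 535 and 637 for H3K4me3. EPHB4 had 50.3% (45.0 to 55.5%). SEMA4F had 213 and 207, 49.3% (44.4 to 54.2%), with 386 and 521 of input and 812 and 784 for H3K4me3. Of the 25 members above input in DMSO, 23 had an interval below the median gene and 0 had one above it, beside 67.6% and 0.572% of all genes above input. Both values use the same DMSO library, and choosing genes by a high DMSO value by itself lowers the ratio, so this is a description. UNC5D reached -0.23 over input in MAK683 and the other 3 remained at -0.54 or lower, so none of the 4 came to lie above input.

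Relative to the median gene, H3K4me3 was slightly higher in MAK683 at most guidance genes. It was above the median gene at 44 of 60 members (73.3%, background 50% by construction), and the median member was at 0.15. This was not particular to the guidance genes. The same held at 41 of 51 cadherin and protocadherin genes (80.4%) and 68 of 83 potassium channel genes (81.9%). The interval lay wholly above the median gene at 32 of 60 members (background 24%) and wholly below at 7 (background 24.9%). With the median of ratios the median member was at 0.011 and the median of all genes at -0.14. That scaling shifts every gene by 1 constant, so the distance between members and all genes is kept by construction. Input was likewise above the median gene at 44 of 59 members (74.6%), with a median of 0.089, so part of the H3K4me3 excess lies in the input. Divided by input, the median member was 0.061 above the median gene. H3K4me3 over input was higher in MAK683 at 37 of 59 members (background 52.2%). At 1.3-fold, 7 of 60 members were called higher (background 10.3%) and 0 lower (background 4.86%). The largest decreases, of SEMA3B, NTN3 and PLXNB1, were -0.23, -0.22 and -0.20. PLXNB1, a receptor of SEMA4D, had 1588 and 1261 H3K4me3 counts, with 261 and 197 for H3K27me3 and 439 and 475 of input.

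SEMA6A had the largest increase. It had 658 H3K4me3 counts under DMSO and 1086 under MAK683, 62.3% (59.9 to 64.6%), 0.85 above the median gene. Input counts were 830 and 1026, close to the change of the median gene, and the difference was between 0.71 and 0.90 under every other setting tried for it. H3K27me3 at SEMA6A was lower, at 36.5% of counts in MAK683 (34.8 to 38.3%), so the 2 modifications differed in opposite directions. The gene lies at chr5:115779251-115910519 (minus strand), and 53.2% of its span is unshared. H3K4me3 over input went from -0.67 to 0.07 and stayed under the 1.5-fold call. At 1.5-fold, SEMA6A and EPHB6 were the 2 members of 60 called higher (background 3.92%).

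EPHB6, ROBO4, SEMA6B, PLXNA2, SEMA3D and PLXNA1 made up the other 6. EPHB6 had 58.5% of its H3K4me3 counts in MAK683 (54.0 to 62.8%) and ROBO4 56.7% (49.8 to 63.4%). In both, however, input was also higher in MAK683. Input was called higher at 1.3-fold at 4 of 59 members, EPHB6, ROBO4, EFNB1 and PLXNB3 (background 4.38%), with input counts of 69 and 125 at EFNB1. Divided by input, the H3K4me3 change was -0.062 at EPHB6 and -0.0014 at ROBO4, so no increase was left at either. The decrease of H3K27me3 at EPHB6 and ROBO4 was larger when divided by input, at -1.23 and -0.99. This added part comes from the same higher input in MAK683, with 146 and 269 counts at EPHB6 and 103 and 169 at ROBO4. SEMA6B, a transmembrane semaphorin, had 187 and 249 H3K4me3 counts, 57.1% (52.3 to 61.8%), with 190 and 274 of input and 140 and 127 for H3K27me3, and its change fell to 0.21 when divided by input. PLXNA2 had 54.9% (53.5 to 56.2%), an excess of 0.41 over the median gene that was 0.21 to 0.46 under the other settings. SEMA3D, a secreted semaphorin, had 1175 and 1401 H3K4me3 counts, with 2791 and 1900 for H3K27me3 and 2075 and 2571 of input.

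**Figure D3:**
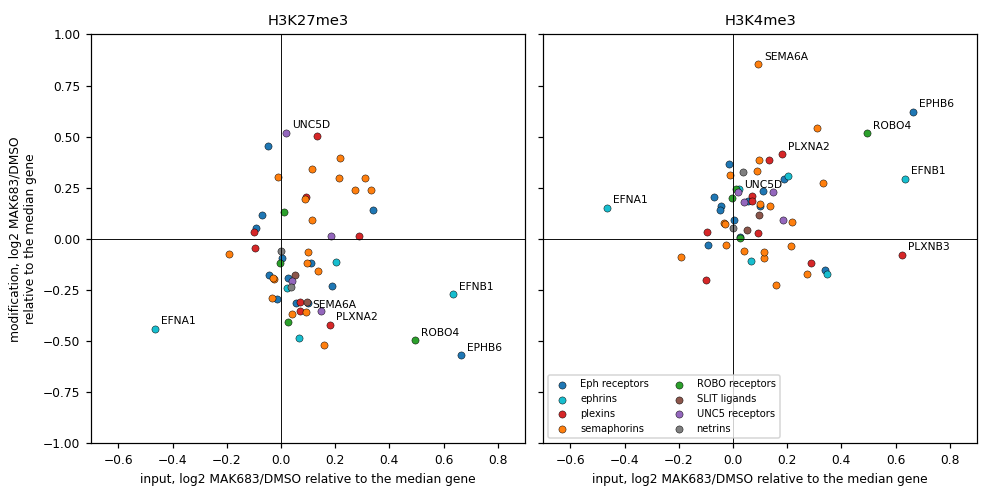
Change of input (x) against the change of H3K27me3 (left) and H3K4me3 (right), log2 MAK683 over DMSO relative to the median gene, 1 point per member. EPHB6 and ROBO4 lie to the right in input and at opposite heights in the 2 panels, while SEMA6A is high in H3K4me3 at an input near 0.

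H3K27me3 in DMSO and the H3K4me3 change ran together to some extent. Of the 25 members above input for H3K27me3 in DMSO, 24 had H3K4me3 above the median gene, with a median of 0.21, and 5 were called higher. Of the 34 at or below input, 20 were above it, with a median of 0.066, and 2 were called. The same division of all genes gave medians of 0.18 and -0.045 and called shares of 21% and 6.34%, so the members followed all genes. Spearman's rho over the 59 members was 0.45. The points share libraries, and gene length went with both values (rho of 0.33 with H3K27me3 over input in DMSO and 0.32 with the H3K4me3 change). Its part in the relation was not tested. ROBO3 and SLIT3, both called for H3K27me3, had H3K4me3 changes of 0.0053 and 0.12, so a high level of H3K27me3 did not by itself go with a called increase.

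Promoter sequences, 300 bases with 250 before and 50 after the start site, were listed by RefSeq (build GRCh38.p14) for 51 of the 60 members. They are shown for the 2 members with a listed promoter and the largest increase in H3K4me3 counts, EPHB6 and ROBO4. Divided by input, no H3K4me3 increase was left at these 2 (-0.062 and -0.0014). Promoters are also shown for the 2 members with the lowest H3K4me3 over input in MAK683. Each promoter matched GRCh37 at 1 place. The CG dinucleotides, where DNA methylation sits in vertebrates, are in capitals. EPHB6 has 3 at chr7:142560264-142560563 (plus strand) and ROBO4 has 11 at chr11:124767712-124768011 (minus strand), and 250 and 247 of the 300 bases lie in introns of the longer gene models. PLXNB3 has 15 at chrX:153029454-153029753 (plus strand) and EPHA5 has 19 at chr4:66536158-66536457 (minus strand), both at the outer start of the gene, where the bases inside the gene are exonic.
EPHB6: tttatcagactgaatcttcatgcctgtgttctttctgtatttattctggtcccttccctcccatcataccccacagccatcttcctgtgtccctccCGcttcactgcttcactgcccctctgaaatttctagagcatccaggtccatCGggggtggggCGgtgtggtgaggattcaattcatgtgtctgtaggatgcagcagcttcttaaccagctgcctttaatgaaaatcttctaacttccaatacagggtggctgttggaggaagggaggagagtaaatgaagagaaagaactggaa
ROBO4: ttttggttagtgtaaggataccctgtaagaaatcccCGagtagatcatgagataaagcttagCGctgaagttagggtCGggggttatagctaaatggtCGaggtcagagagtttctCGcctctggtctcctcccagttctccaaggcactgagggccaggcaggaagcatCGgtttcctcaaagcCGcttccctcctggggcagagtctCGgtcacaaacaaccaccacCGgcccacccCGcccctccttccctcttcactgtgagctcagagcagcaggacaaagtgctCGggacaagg
PLXNB3: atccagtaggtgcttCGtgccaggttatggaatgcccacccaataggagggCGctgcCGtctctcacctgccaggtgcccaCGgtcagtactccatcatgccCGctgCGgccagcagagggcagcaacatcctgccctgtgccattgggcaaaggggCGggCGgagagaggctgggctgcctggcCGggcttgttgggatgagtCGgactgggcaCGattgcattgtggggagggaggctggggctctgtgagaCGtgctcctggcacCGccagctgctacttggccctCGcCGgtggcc
EPHA5: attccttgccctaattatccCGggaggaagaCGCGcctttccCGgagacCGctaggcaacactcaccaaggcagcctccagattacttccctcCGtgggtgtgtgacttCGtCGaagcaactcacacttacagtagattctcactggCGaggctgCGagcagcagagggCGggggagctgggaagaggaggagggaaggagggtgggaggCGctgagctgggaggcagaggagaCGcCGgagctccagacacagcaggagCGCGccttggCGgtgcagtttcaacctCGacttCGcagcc
PLXNB3 had an H3K4me3 level over input of -1.30 in MAK683 and of -0.58 in DMSO, with input counts of 124 and 69. EPHA5, an Eph receptor of neurons with 2097 and 1875 H3K4me3 counts against 4063 and 4422 of input, had -1.25 in MAK683. Both of these promoters held more CG than those of EPHB6 and ROBO4, a difference between 4 chosen genes that was not tested. At least 20 CG were found in 28 of 51 member promoters (54.9%), against 41.2% of 27305 RefSeq promoters. Over the 51 members, the number of CG had a rho of 0.15 with H3K4me3 over input and -0.046 with H3K27me3 over input in DMSO. The members with the fewest and the most had 2 and 54.

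Other genes of the pathway were also described, from lists drawn up with earlier results of these data known. Their shares were not tested. Of 20 co-receptors and other surface or secreted partners, 19 passed the input filter, 4 were called for H3K27me3 in DMSO (21.1%, background 10.7%) and 3 for higher H3K4me3 (15.8%, background 10.3%). CXCR4, the receptor of the chemokine CXCL12, had 406 H3K27me3 against 43 input counts in DMSO and 261 against 72 in MAK683, a log2 of 3.03 and 2.39. SLITRK1, a neuronal membrane protein, was at 2.53, with 360 against 54 and then 224 against 81. NRP2, the neuropilin that SEMA3F binds, had 5123 against 1278 and then 2974 against 1656, and NCAM1, a neural adhesion molecule, 10904 against 3668 and then 6739 against 4207. H3K4me3 counts of NRP2 were 1203 and 1714, a change of 0.64, while input changed by 0.16 relative to the median gene. CXCR4 and SLITRK1 had changes of 0.55 and 0.95, from few counts (167 and 224, 68 and 121), and their input changed by 0.52 and 0.36. The netrin receptor DCC, at -0.44 over input, was not called.

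Of 32 cytoplasmic effectors, CRMP1, DPYSL3 and FYN were called for H3K27me3 in DMSO, and the first 2 for higher H3K4me3. These shares, 9.38% and 6.25%, were no higher than the backgrounds of 10.7% and 10.3%. CRMP1 and DPYSL3 belong to the collapsin response mediators, which act downstream of semaphorins. CRMP1 had 2913 H3K27me3 against 785 input counts in DMSO and 1832 against 932 in MAK683, and its H3K4me3 counts were 897 and 1445, a change of 0.82 with an input change of 0.031. DPYSL3 had 1317 and 1594 H3K4me3 counts, a change of 0.41. Many of the effectors are widely expressed signalling proteins. Their median H3K27me3 over input was -0.94, below that of the ligands (-0.19) and receptors (-0.038). Expression was not measured in these libraries, and whether it bears on this difference was not tested.

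Of the families compared, the potassium channel genes had 23 of 83 called for H3K27me3 in DMSO (27.7%) and the cadherin and protocadherin genes 3 of 41 (7.32%), with the guidance genes at 11.9% and all genes at 10.7%. H3K4me3 was called higher in 16 of 83 (19.3%), 10 of 51 (19.6%) and 7 of 60 (11.7%), with the guidance genes last, beside 10.3% of all genes. These differences were not tested.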

How the data were processed

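H3K27me3, H3K4me3 and input libraries of G401 cells were analysed, 1 per treatment. Per the labels, the authors trimmed reads with Trim Galore 0.4.4, used the hg19 build, Bowtie2, Picard 2.23.6 and featureCounts, and deposited whole-number counts per gene. Whether the spike-in normalization of the methods entered these counts is not stated, and it was not repeated. The annotation used for counting is not given in the sources used here. Gene coordinates are from GENCODE release 44 on GRCh37, the same build as hg19, which held all 60 members.

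Members and gene lists were chosen with earlier results of these data known. Every member could be named. All 6 counts were given for those with the 10 highest H3K27me3 levels over input, the 5 largest H3K4me3 increases and 3 decreases, the 5 largest H3K27me3 decreases and increases, the highest and lowest H3K27me3 of each family, and ROBO1 with its ligands, except that the H3K27me3 count of PLXNA1 in MAK683 is given only as a share. The called SEMA3D and others given for a comparison were added after their values were seen.

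CPM were computed from library totals, with a pseudocount of 0.05 CPM for levels over input and 1 count for changes (Python 3.11.15, numpy 2.4.6, pandas 2.3.3, scipy 1.17.1, matplotlib 3.10.9). Shares have 95% Clopper-Pearson intervals. PCR reads without molecular identifiers are not independent molecules, so intervals and floors cover counting error only. The computation was tested on simulated counts. The alternatives were other scales, pseudocounts, filters, inputs and thresholds.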

Additional observations from a re-analysis of the deposited data

How the results depend on the processing

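With 1 library per value, no result has an error between replicates, and depth limits the short members most. No paired analysis was possible because each group has 1 library and no result comes from a test. Of the values for the family as a whole, 58 stayed and 22 moved. A count stayed if it was within 1.5 times the reported count. A median stayed if it lay within an interval of the median over the members, which covers the spread between genes and not counting error. Of the values for single genes, judged by counting error, 225 stayed, 68 moved and 3 reversed.

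Another scale shifts all genes by 1 constant, and the counts of members moved with the background. Median-of-ratios scaling moved the median of all genes by -0.10 for H3K27me3 and -0.14 for H3K4me3. Under it, 17 members in DMSO (background 21.5%) and 10 in MAK683 (15.6%) were called for H3K27me3, with median log2 over input of 0.43 and 0.27 beside -0.16 in all genes in both treatments. For the H3K27me3 change 17 were lower (18%) and 2 higher (6.18%), and for the H3K4me3 change 3 were higher (5.2%), with a median of 0.011. With library totals, the H3K27me3 change had 4 members lower (5.75%) and 8 higher (16.5%) and a median of -0.031, beside 0.089 in all genes. A 1.5-fold call over input gave 15 members in DMSO (18.4%) and 10 in MAK683 (15.8%).

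For the changes, a call at 1.5-fold left 0 lower (background 2.96%) and 0 higher members (3.31%) for H3K27me3 and 2 higher for H3K4me3 (3.92%). With a mean of at least 500 counts, 1 member was lower (1.72%) and 2 higher (7.81%) for H3K27me3, among 35 members tested. Divided by the input of each treatment, 14 were lower (14.6%) and 2 higher (13.8%) for H3K27me3, and 6 lower (12.4%) and 2 higher (11.1%) for H3K4me3. Division by input reversed 3 single changes, to 0.015 for H3K27me3 at EFNA1, -0.062 for H3K4me3 at EPHB6 and -0.0014 for H3K4me3 at ROBO4, each a gene whose input count changed. The H3K27me3 changes of the other called members kept their direction under the settings that gave them a value.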
